A study of Homo sapiens with 18 samples.

Results

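The genes described here are 10 human genes of protease inhibition and inhibitor uptake, A2M, LRP1, TIMP1, TIMP2, TIMP3, TIMP4, CST1, CST3, SERPINE2 and SPOCK1, among the 58870 genes measured by RNA sequencing (RNAseq). They were taken by their gene symbols, and the set was selected on earlier results of these data, in particular on A2M moving in opposite directions in different lines with MAFG overexpression. The change of A2M is therefore given as a description, with no test, while the other 9 genes were tested among all genes. The libraries came from the human melanoma cell lines WM164, SKMel28 and A375, cultured in RPMI with 5% FBS and transduced with a lentiviral vector for MAFG carrying a Myc-DDK tag or for GFP, under the EF1α promoter and with blasticidin selection. MAFG is a small MAF transcription factor. There were 3 libraries in each of the 6 conditions and 18 in all, the labels name no clone, and nothing says that the 3 libraries of a condition came from separate cultures, so that p-values measure only the spread between these libraries.

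Secreted proteases that cut the extracellular matrix are held in check by inhibitors of different build. A2M (alpha-2-macroglobulin) is a large plasma protein that traps proteases of all classes, and LRP1, a receptor of the LDL receptor family, takes up the A2M-protease complexes and many others. The TIMPs inhibit matrix metalloproteinases and related enzymes, cystatins such as CST1 and CST3 inhibit cysteine cathepsins, SERPINE2 (protease nexin 1) inhibits thrombin, urokinase and other serine proteases, and SPOCK1 (testican 1) is an extracellular proteoglycan of the SPARC family reported to inhibit cathepsin L. In melanoma, TIMPs and serpins are made by the tumour cells themselves as well as by the surrounding stroma.

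The summed counts per library, which are the depth, ranged from 20122172 to 39025042. Levels are given as CPM, in which each count is scaled to the TMM-adjusted size of its library, and log2 fold changes compare MAFG with GFP libraries within a line. A gene is said to have changed at an adjusted p of 0.05 or less in the quasi-likelihood test of edgeR, adjusted after Benjamini and Hochberg over every tested gene, and as past 2-fold where its absolute log2 fold change was also above 1. MAFG itself was at 25.8 ± 2.91 CPM with GFP and 53.0 ± 4.59 with MAFG in WM164 cells (mean ± SD, n = 3 libraries, as in all such values), at 24.1 ± 3.47 and 37.3 ± 1.54 in SKMel28 cells, and at 27.0 ± 4.98 and 47.3 ± 9.23 in A375 cells, where its log2 fold change of 0.80 did not pass (edgeR adjusted p = 0.0655). In A375 cells the MAFG library of replicate 1 stood apart, with a mean chi-square per gene of 68.7 and 96.7 against the other two, compared with 5.90 to 30.2 over the other 16 pairs of replicates. The melanocyte lineage genes MLANA and TYR had no read in any A375 library, while MITF, SOX10 and S100B had reads in all 18 libraries. The summed level of 7 lineage markers was 35.3 to 41.6 CPM in A375 libraries with GFP and 119.9 to 172 CPM with MAFG. It was 2637 to 5044 CPM in the libraries of WM164 and SKMel28 cells. The T cell marker CD3E and the endothelial marker CLDN5 were at 0 in all 18 libraries, and the summed markers reached at most 2.25 CPM for leukocytes, 2.43 for endothelial and 1.41 for epithelial cells, and 3.94 to 27.2 CPM for fibroblasts.

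In WM164 cells, 5 of 8 tested genes changed with MAFG overexpression, 4 higher (TIMP1, CST1, SERPINE2 and SPOCK1) and 1 lower (TIMP2), where 31.8% of all tested genes changed, 16.2% higher and 15.6% lower. In SKMel28 cells, 6 of 8 changed, 3 higher (TIMP1, TIMP3 and SERPINE2) and 3 lower (LRP1, CST1 and SPOCK1), against 29.9% of all tested genes, 14.6% higher and 15.3% lower. In A375 cells, 2 of 7 changed, both higher (TIMP3 and SERPINE2), against 0.843% of all tested genes, 0.78% higher and 0.0634% lower. Past 2-fold were CST1 and SPOCK1 in WM164 cells (6.94% of all tested genes), TIMP3, CST1 and SPOCK1 in SKMel28 cells (4.74%), and TIMP3 in A375 cells (0.665%). A2M is not in these counts, TIMP4 had too few counts to be tested in any line, and CST1 had none in A375 cells. Without the A375 MAFG library of replicate 1, which stood apart, 3 genes changed in A375 cells, TIMP3, SERPINE2 and SPOCK1. By edgeR within each line, SERPINE2 changed in all 3 lines and CST3 in none. Several calls depended on the setting. These were the calls of TIMP2 in WM164 cells and of LRP1, TIMP2, CST3 and SPOCK1 in SKMel28 cells. In A375 cells they were those of TIMP3, SERPINE2 and SPOCK1. The tested genes had a median log2 fold change of 0.28 (WM164), -0.05 (SKMel28) and 0.20 (A375), beside medians of -0.00, -0.01 and -0.00 over all tested genes.

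**Figure D1:**
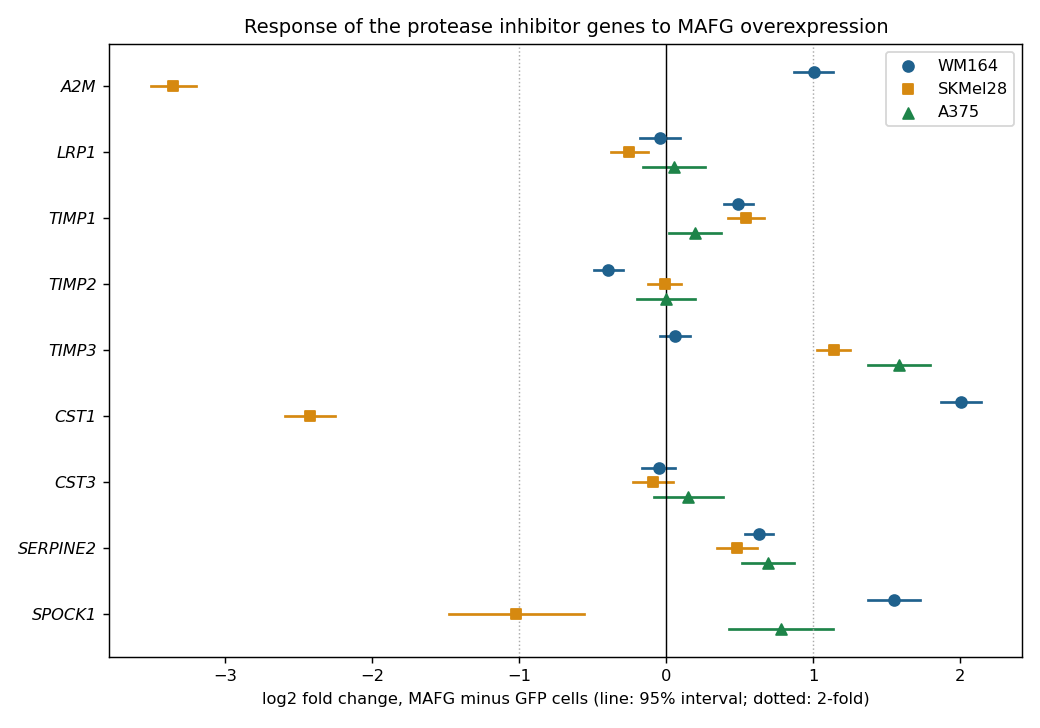
Log2 fold change of MAFG against GFP cells (x axis) for each gene (y axis), with the 95% interval as a line, in WM164 (circles), SKMel28 (squares) and A375 cells (triangles); dotted lines mark 2-fold. CST1 and SPOCK1 lie on opposite sides of 0 in WM164 and SKMel28 cells, and SERPINE2 lies between 0.48 and 0.69 in all 3 lines. TIMP4, the A375 values of CST1 and A2M, and any gene without counts are not drawn. A2M is shown as a description, and its intervals are not to be read as a test, since the set was selected on its change.

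**Figure D2:**
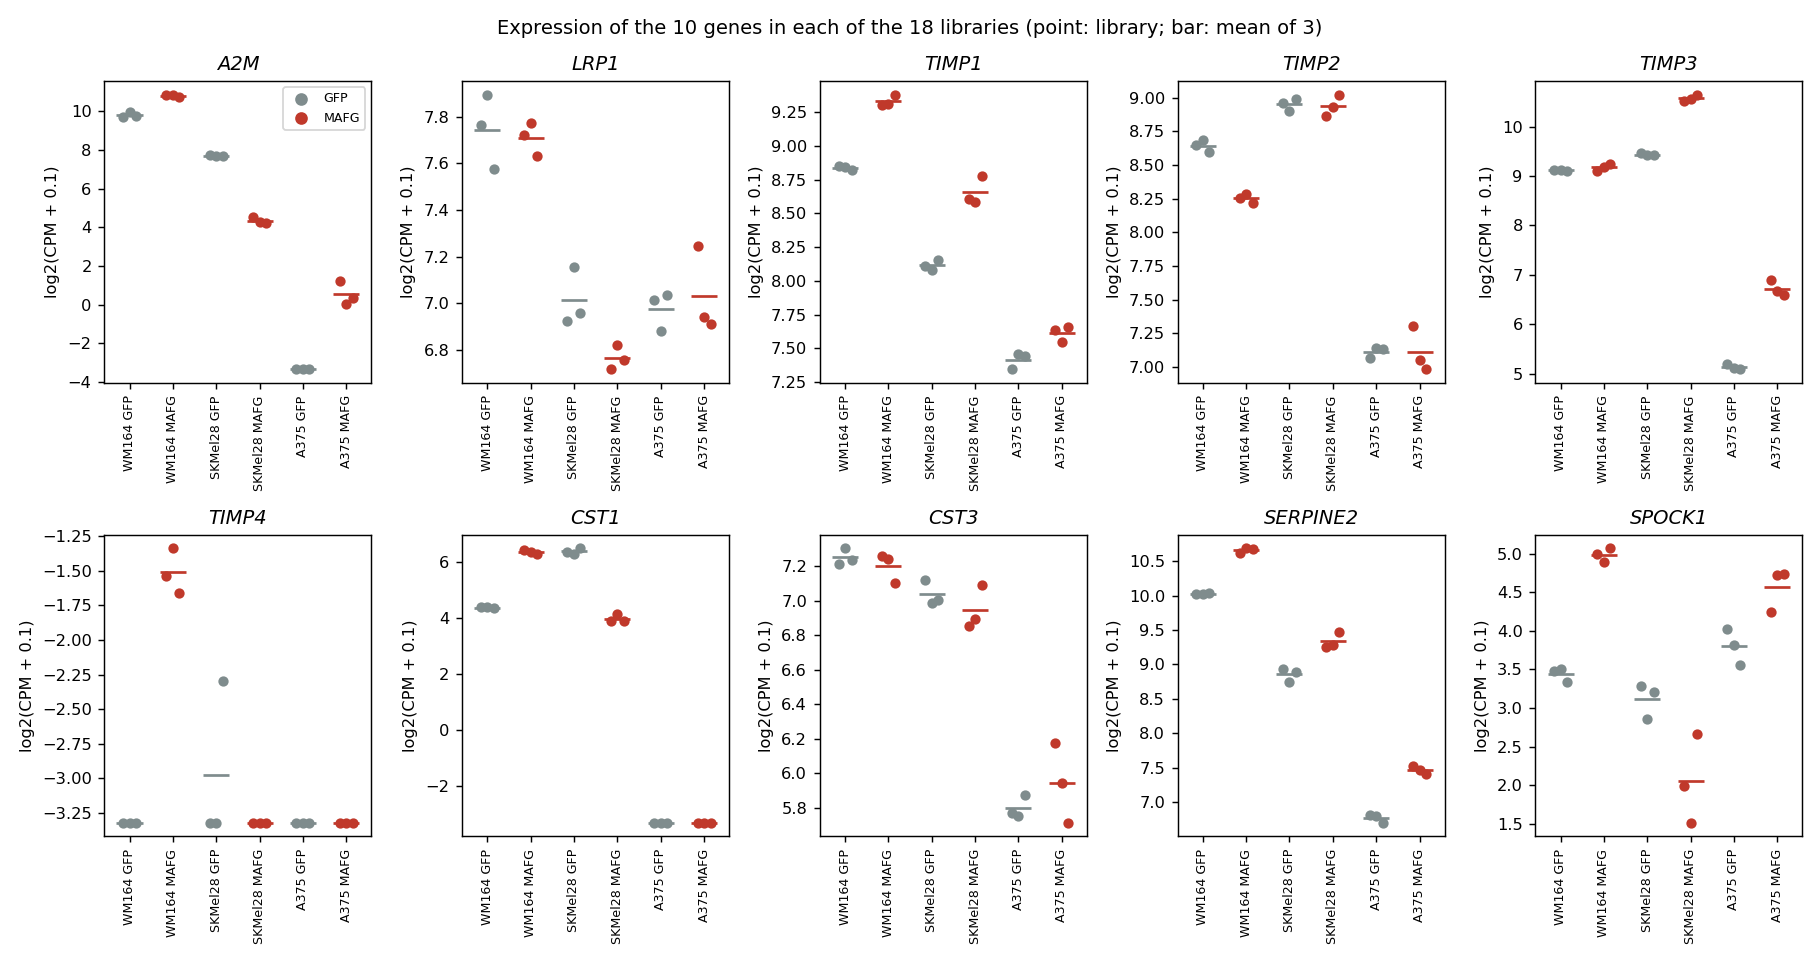
Level of each gene as log2(CPM + 0.1) (y axis) in each library (points) of the 6 conditions (x axis), GFP in grey and MAFG in red, with the mean of 3 libraries as a bar. A2M falls from WM164 to SKMel28 to A375 cells without any overlap between the 6 conditions, and TIMP4 is at or near the bottom of the scale throughout.

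A2M (chromosome 12 from 9067664 to 9116229 of GRCh38, minus strand) had its highest levels in WM164 cells, at 821, 1009.5 and 859 CPM in the GFP libraries and 1848, 1842 and 1706 CPM in the MAFG libraries. Every MAFG library was thus above every GFP library, with a log2 fold change of 1.004, or 2.01-fold. In SKMel28 cells, the GFP libraries were at 213, 205 and 208 CPM and the MAFG libraries at 23.2, 19.4 and 18.6 CPM. Here every MAFG library was below every GFP library, with a log2 fold change of -3.35. In A375 cells, A2M had 0 counts in each GFP library and 88, 35 and 50 counts in the MAFG libraries, or 2.22, 0.927 and 1.16 CPM. Against a floor of 3 counts per library, A2M was at least 17.7-fold higher with MAFG in A375 cells, and at least 12.9-fold higher without the MAFG library of replicate 1, which had the highest of these levels. The A375 mean was 0% of the WM164 mean with GFP and 0.080% of it with MAFG. At so low a share, expression in A375 cells and reads carried over from other libraries cannot be told apart. The order of the 6 conditions was WM164 MAFG, WM164 GFP, SKMel28 GFP, SKMel28 MAFG, A375 MAFG and A375 GFP, and no neighbours in it overlapped. As the RNA is from whole cultures, fewer cells with a transcript and less of it per cell cannot be told apart.

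Other genes moved beside A2M. In the A375 MAFG libraries, SOX10, a transcription factor of the neural crest and melanocyte lineage, was at 142, 102 and 97.8 CPM against 6.93, 8.15 and 11.5 CPM with GFP, and SERPINA3, a serpin, was at 1.69, 1.22 and 0.628 CPM against 0. MLANA, CST1 and LRP2, which reached 343, 87.6 and 98.5 CPM in WM164 libraries, were at 0 counts in all 6 A375 libraries. The lineage markers PMEL and DCT, which reached 1823 and 1499 CPM, were at 0 in only 1 and 5 of the 18 libraries. Both thus had reads in A375 cells. Whether reads were carried over between libraries was not tested. In WM164 cells, MLANA was lower with MAFG while A2M was higher (332 ± 9.37 with GFP and 62.7 ± 1.82 CPM with MAFG), and the summed level of the 7 lineage markers was 4693 to 5027 CPM with GFP and 2637 to 2766 CPM with MAFG. In SKMel28 cells, where A2M was lower, that sum was 4787 to 5044 CPM with GFP and 4159 to 4386 CPM with MAFG, and in A375 cells it was 35.3 to 41.6 and 119.9 to 172 CPM. The part of these levels in the change of A2M was not tested.

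A2M shares 561 of its 6318 annotated exon bases with A2M-AS1, a long noncoding RNA on the opposite strand. Whether reads were counted by strand is not stated, so that reads from the shared bases cannot be told apart. A2M-AS1 was at a mean of 0.29 CPM or less in every condition. In A375 cells, where A2M was at a mean of only 1.44 CPM with MAFG, A2M-AS1 was at 0.0550 CPM with GFP and 0.207 CPM with MAFG. PZP, the nearest relative of A2M with 77.1% identical bases over the aligned longest coding transcripts, was at 0.0493 CPM in WM164 cells with MAFG and at 0 in the other 5 conditions.

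Over the 18 libraries and 18767 genes, the 5 genes whose log2 CPM followed A2M most closely by Pearson correlation were LINC02119 (0.986), ITIH6 (0.984), CDH19 (0.983), MPPED2 (0.980) and CSGALNACT1 (0.980). These coefficients are a description over libraries that share lines and conditions. ITIH6, of the inter-alpha-trypsin inhibitor heavy chain family, was at 103 CPM in WM164 cells with GFP and 203 with MAFG, at 11.7 and 3.58 CPM in SKMel28 cells, and at 0 and 0.535 CPM in A375 cells. MPPED2 had the opposite order in WM164 cells, at 7.15 CPM with GFP and 5.19 with MAFG.

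**Figure D3:**
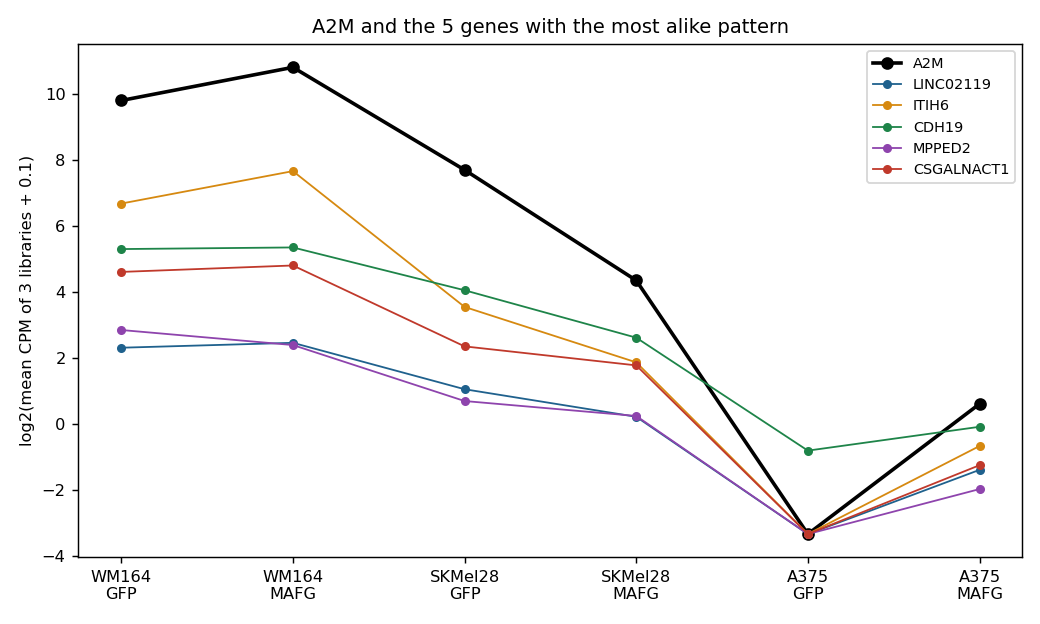
Mean level of A2M (black) and of the 5 genes with the highest correlation with it over 18 libraries, as log2(mean CPM of 3 libraries + 0.1) (y axis), in the 6 conditions (x axis). All 6 genes are highest in WM164 cells and lowest in A375 cells with GFP; LINC02119, ITIH6, MPPED2 and CSGALNACT1 are at 0 there.

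LRP1 (chromosome 12 from 57128483 to 57213361, plus strand), the receptor for A2M-protease complexes, fell slightly in SKMel28 cells and did not pass the test in the other lines. In WM164 cells it was at 217, 238 and 191 CPM with GFP and 211, 219 and 198 CPM with MAFG, which overlap (log2 fold change -0.04, 95% interval -0.18 to 0.10, edgeR adjusted p = 0.71). In SKMel28 cells, it fell from 121, 142 and 124 CPM to 105, 113 and 108 CPM (log2 fold change -0.25, standard error 0.07, edgeR adjusted p = 0.00859). This call was lost in the model of all 18 libraries (edgeR adjusted p = 0.0816) and on the log2(TPM + 1) scale (-0.43, limma adjusted p = 0.0680). In A375 cells the values overlapped, with 129, 118 and 131 CPM with GFP and 152, 123 and 120.3 CPM with MAFG. LRP1 shares 59 of its 20859 exon bases with STAT6 on the opposite strand, which was also lower with MAFG in SKMel28 cells (log2 fold change -0.28, edgeR adjusted p = 0.00445), and 112 with LRP1-AS.

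Of the 10 other genes of the LDL receptor family and its chaperone, 4 of 9 tested rose and 0 fell in WM164 cells, 1 rose and 4 fell in SKMel28 cells, and 0 of 8 changed in A375 cells. Their median log2 fold changes were 0.18, -0.12 and 0.05. Among all tested genes, 16.2% rose and 15.6% fell in WM164, 14.6% and 15.3% in SKMel28, and 0.78% and 0.0634% in A375 cells. LRP2 (megalin), an endocytic receptor that also takes up protease-inhibitor complexes, rose in both lines that express it, from 15.2 ± 2.99 to 93.2 ± 6.92 CPM in WM164 cells (log2 fold change 2.61, standard error 0.11, edgeR adjusted p = 2.44e-12) and from 3.02 ± 0.327 to 19.99 ± 0.592 CPM in SKMel28 cells (2.73, standard error 0.13, edgeR adjusted p = 4.85e-10). LRPAP1, the chaperone that keeps LRP1 from binding ligands too early, had log2 fold changes of 0.13 (edgeR adjusted p = 0.0901) in WM164 and -0.15 (edgeR adjusted p = 0.0459) in SKMel28 cells.

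TIMP1 (chromosome X from 47582408 to 47586789, plus strand) was the most abundant of the 10 genes per length in all 6 conditions, by the deposited TPM, a read density per transcript length, with means from 255 TPM in A375 cells with GFP to 680.2 TPM in WM164 cells with MAFG. In WM164 cells it rose from 461, 459.9 and 452 CPM to 631, 634 and 666 CPM (log2 fold change 0.49, standard error 0.05, edgeR adjusted p = 4.59e-07). In SKMel28 cells, it rose from 277, 270.1 and 285 CPM to 390.3, 383 and 438 CPM (0.54, standard error 0.06, edgeR adjusted p = 7.47e-06). In both lines the groups did not overlap. In A375 cells, the libraries were at 163, 175 and 174 CPM with GFP and 199, 187 and 202 CPM with MAFG, which do not overlap either, but the log2 fold change of 0.20 did not pass (95% interval 0.02 to 0.37, edgeR adjusted p = 0.826). That interval uses the normal distribution and is somewhat narrow for so few libraries.

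TIMP3 (chromosome 22 from 32801705 to 32863041, plus strand), the TIMP that binds to the extracellular matrix, rose in SKMel28 and A375 cells. It went from 707, 682 and 685 CPM to 1454, 1512 and 1599 CPM in SKMel28 cells (log2 fold change 1.14, standard error 0.06, edgeR adjusted p = 8.63e-10). In A375 cells it went from 36.7, 34.3 and 34.0 CPM to 119, 101 and 95.8 CPM (1.58, standard error 0.11, edgeR adjusted p = 4.98e-05), and the log2 fold change was 1.51 without the MAFG library of replicate 1. The A375 call was lost on log2(TPM + 1) without a filter on low TPM (1.33, limma adjusted p = 0.105). In WM164 cells the libraries overlapped, at 553, 558 and 551 CPM with GFP and 546, 583 and 608 CPM with MAFG (0.06, 95% interval -0.04 to 0.16, edgeR adjusted p = 0.412).

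TIMP2 (chromosome 17 from 78852977 to 78925387, minus strand), which besides inhibiting MMP14 takes part with it in the activation of MMP2, fell in WM164 cells alone of the 3 tests, from 402, 411 and 387 CPM to 305, 311 and 298 CPM (log2 fold change -0.39, standard error 0.05, edgeR adjusted p = 9.29e-06). On the log2(TPM + 1) scale, on which the median of all genes was 0.15 higher, this call was lost (-0.21, limma adjusted p = 0.249). In SKMel28 cells, TIMP2 was at 497, 479 and 507 CPM with GFP and 465, 487 and 519 CPM with MAFG. In A375 cells, it was at 134, 141 and 140.3 CPM with GFP and 158, 133 and 127 CPM with MAFG, so that the groups overlapped in both lines (95% intervals of the log2 fold change -0.12 to 0.10 and -0.20 to 0.19). On log2(TPM + 1) without a filter on low TPM, TIMP2 passed as lower in SKMel28 cells (-0.18, limma adjusted p = 0.0472). The median of all genes moved by -0.12 on that scale. Of its 6209 exon bases, TIMP2 shares 224 with CEP295NL on the same strand and 367 with the noncoding AC022966.1 on the opposite strand.

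TIMP4 (chromosome 3 from 12153068 to 12158912, minus strand) was at or near 0 everywhere. It had 7, 8 and 7 counts in the WM164 MAFG libraries, or 0.245, 0.296 and 0.216 CPM, against 0 in the GFP libraries, which makes it at least 2.33-fold higher against the floor of 3 counts. One SKMel28 GFP library had 3 counts, and the other 14 libraries had 0. TIMP4 shares 170 of its 1194 exon bases with SYN2, in which it lies on the opposite strand. TIMP1 and TIMP3 lie in the same way within SYN1 and SYN3, synapsin genes, but share no exon base with them. SYN1 was at a mean of 2.27 CPM or less and SYN3 at 7.12 CPM or less in every condition, and both were highest in WM164 cells with MAFG.

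The makeup of the TIMP transcripts differed by line. TIMP1 made up 76.5% ± 0.405 of the summed TPM of the 4 genes in WM164 cells with GFP and 83.3% ± 0.345 with MAFG, 62.2% ± 0.742 and 61.1% ± 1.38 in SKMel28 cells, and 87.0% ± 0.387 and 85.5% ± 1.797 in A375 cells. TIMP3 went from 12.1% ± 0.185 to 9.88% ± 0.298 in WM164 cells, from 19.5% ± 0.661 to 27.3% ± 1.02 in SKMel28 cells and from 2.09% ± 0.183 to 5.26% ± 0.636 in A375 cells. The share of TIMP3 was thus smaller with MAFG in WM164 and larger in the other two lines, by more than the SDs. The summed level of the 4 genes was 565 ± 58.0 TPM with GFP and 817 ± 29.5 TPM with MAFG in WM164 cells, 636 ± 6.78 and 885 ± 35.1 TPM in SKMel28 cells, and 293 ± 23.1 and 324 ± 42.1 TPM in A375 cells.

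**Figure D4:**
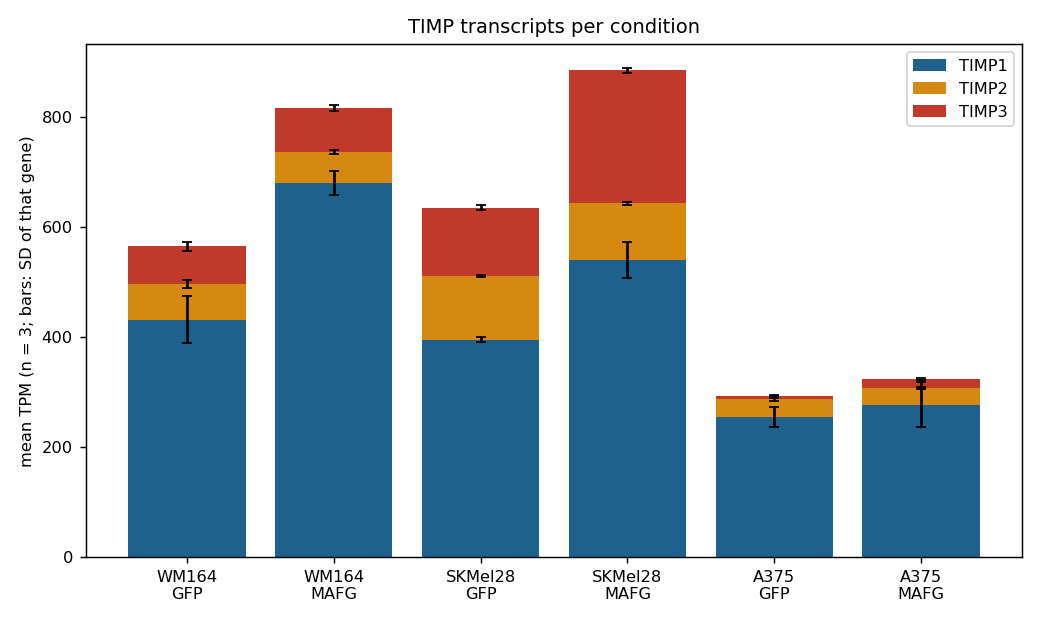
Mean TPM (y axis) of TIMP1, TIMP2 and TIMP3 stacked for each of the 6 conditions (x axis; n = 3 libraries, error bars are the SD of each gene). The TIMP3 segment is tallest in SKMel28 cells with MAFG, at 241 TPM, and shortest in A375 cells with GFP, at 6.15 TPM; TIMP4, at most 0.157 TPM on average, is not drawn.

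RECK, a membrane-anchored metalloproteinase inhibitor, rose in SKMel28 cells (log2 fold change 0.67, edgeR adjusted p = 0.0233) and had a log2 fold change of -0.36 in WM164 cells (edgeR adjusted p = 0.0794). Among the enzymes that TIMPs inhibit, MMP2, a gelatinase, rose in all 3 lines, from 32.1 ± 1.70 to 56.7 ± 4.26 CPM in WM164 cells (0.82, edgeR adjusted p = 1.59e-07), from 3.80 ± 0.416 to 19.2 ± 0.915 CPM in SKMel28 cells (2.33, edgeR adjusted p = 2.76e-09) and from 12.4 ± 0.205 to 49.4 ± 10.3 CPM in A375 cells (1.99, edgeR adjusted p = 6.65e-05). The A375 MAFG libraries were at 60.9, 41.3 and 45.9 CPM, so that MMP2 was also higher in the pair of libraries other than replicate 1. MMP15, a membrane-type metalloproteinase, rose from 52.1 to 115 CPM in WM164 cells (1.14, edgeR adjusted p = 2.28e-09).

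CST1 (chromosome 20 from 23747562 to 23751268, minus strand), which encodes cystatin SN, changed in opposite directions in the lines that express it. In WM164 cells it rose from 20.9, 20.96 and 20.3 CPM to 87.6, 82.3 and 79.5 CPM (log2 fold change 2.003, standard error 0.07, edgeR adjusted p = 3.26e-13). In SKMel28 cells it fell from 83.3, 77.8 and 90.1 CPM to 14.7, 17.5 and 14.7 CPM (-2.42, standard error 0.09, edgeR adjusted p = 1.55e-11). The levels with MAFG in WM164 cells overlapped those with GFP in SKMel28 cells, and the other neighbours in the order of these 4 conditions did not overlap. A375 cells had 0 counts of CST1 in all 6 libraries.

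CST2 and CST4, relatives of CST1 whose longest coding transcripts have 90.9% and 94.7% of bases identical with it, also rose in WM164 cells, from 3.39 to 8.93 CPM (log2 fold change 1.39, edgeR adjusted p = 8.74e-07) and from 1.59 to 5.30 CPM (1.74, edgeR adjusted p = 4.25e-06). Only reads with a unique alignment were counted. With such identity, reads could be lost from or misplaced among the 3 genes, so the values of all 3 are uncertain. In SKMel28 cells with GFP, however, CST1 was at 83.7 CPM while CST2 was at 0.0656 and CST4 at 0 CPM. CST7, cystatin F, fell in WM164 cells from 1.73 to 0.0912 CPM, with 43 to 52 counts per library with GFP and 2 to 3 with MAFG (18.8-fold lower over summed counts, 95% exact counting interval 9.31 to 44.5, edgeR adjusted p = 5.19e-06). Of 11 other cystatins, 4 were tested in WM164 cells, with 2 higher and 2 lower, and neither of the 2 tested in SKMel28 cells nor the 1 in A375 cells changed.

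CST3 (chromosome 20 from 23626706 to 23638473, minus strand), which encodes the widely made cystatin C, did not pass the test in any line. It was at 148, 158 and 151 CPM with GFP and 153, 151 and 137 CPM with MAFG in WM164 cells (95% interval of the log2 fold change -0.16 to 0.06), and at 139, 127 and 128 and at 115, 119 and 136 CPM in SKMel28 cells (-0.22 to 0.05). In A375 cells, it was at 54.4, 53.8 and 58.5 CPM with GFP and 72.2, 61.5 and 52.4 CPM with MAFG (-0.08 to 0.39). The groups overlapped in each line. On the log2(TPM + 1) scale, on which the median of all genes was itself 0.15 lower in SKMel28 cells, CST3 passed there (-0.29, limma adjusted p = 0.0204).

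Several cysteine cathepsins, lysosomal proteases that cystatins bind, were lower with MAFG in WM164 and SKMel28 cells. CTSB fell from 551 ± 23.3 to 412 ± 17.8 CPM in WM164 cells (log2 fold change -0.42, edgeR adjusted p = 9e-06) and from 642 ± 21.95 to 381 ± 17.5 CPM in SKMel28 cells (-0.75, edgeR adjusted p = 1.03e-07). CTSK, a collagen-cleaving cathepsin, fell by 1.17 and 0.92 on the log2 scale in the 2 lines, and CTSH by 0.36 and 1.09. CTSL fell by 0.58 and 0.77. In A375 cells, none of CTSB, CTSL and CTSH passed the edgeR test (adjusted p = 0.997 for each), and CTSK was not tested. Over the 22 target proteases listed, 6 of 18 tested rose and 6 fell in WM164 cells, 4 of 18 rose and 9 fell in SKMel28 cells, and 2 of 19 rose and 0 fell in A375 cells (median log2 fold changes -0.00, -0.22 and 0.21). Among all tested genes, 16.2% rose and 15.6% fell in WM164, 14.6% and 15.3% in SKMel28, and 0.78% and 0.0634% in A375 cells.

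SERPINE2 (chromosome 2 from 223975045 to 224039318, minus strand) rose in all 3 lines. The GFP and MAFG libraries of WM164 cells were at 1042, 1045 and 1047 CPM and at 1570.3, 1646 and 1641 CPM (log2 fold change 0.63, standard error 0.05, edgeR adjusted p = 1.61e-08). In SKMel28 cells, it went from 489, 427 and 476 CPM to 611, 621 and 712 CPM (0.48, standard error 0.07, edgeR adjusted p = 8.24e-05). In A375 cells, it went from 113, 111 and 104 CPM to 184, 177 and 171 CPM (0.69, standard error 0.09, edgeR adjusted p = 0.00532). No MAFG library overlapped a GFP library of its line, and none of the differences of this response between lines passed the test (adjusted p = 0.374, 0.81 and 0.194 in the edgeR model of all 18 libraries). The call in A375 cells was lost without the GFP library of replicate 2 (edgeR adjusted p = 0.0579) and without the MAFG library of replicate 2 (edgeR adjusted p = 0.0503), at log2 fold changes of 0.70 and 0.68. It held without the MAFG library of replicate 1 (0.69, edgeR adjusted p = 4.3e-04), and was lost on the log2(TPM + 1) scale (0.56, limma adjusted p = 0.867).

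The sequence before the start sites of SERPINE2 is shown because this was the tested gene that rose in each line. RefSeq start sites (GRCh38.p14) matched 6 of the 10 genes, with 7 windows of 250 bases before a start. A2M, TIMP2, CST1 and SPOCK1 had none. Each window was searched on both strands for the E-boxes CACGTG and CATGTG, which MITF and related factors bind, for TGACNNNGC, the core of the element bound by small MAF proteins with NRF2, and for TGANTCA, the AP-1 element. The 2 windows of SERPINE2 and, for comparison, that of TIMP3, which rose in SKMel28 and A375 cells, are printed from 5′ to 3′ on the strand of the gene, with matches in capitals. They lie at chr2:224031479-224031728 and chr2:224038641-224038890 on the minus strand and at chr22:32801455-32801704 on the plus strand.
SERPINE2, before the inner start at 224031478: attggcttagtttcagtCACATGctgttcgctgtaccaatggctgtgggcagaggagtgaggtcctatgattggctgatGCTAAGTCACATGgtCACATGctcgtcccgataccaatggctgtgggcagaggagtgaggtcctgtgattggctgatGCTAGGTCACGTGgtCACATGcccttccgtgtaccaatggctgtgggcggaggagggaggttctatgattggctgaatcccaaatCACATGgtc
SERPINE2, before the outer start at 224038640: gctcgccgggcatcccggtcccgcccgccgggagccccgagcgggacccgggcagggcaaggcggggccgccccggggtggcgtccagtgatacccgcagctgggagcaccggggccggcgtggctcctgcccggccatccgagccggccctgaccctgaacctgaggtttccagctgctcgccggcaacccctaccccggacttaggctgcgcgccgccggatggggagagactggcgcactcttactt
TIMP3, before the start at 32801705: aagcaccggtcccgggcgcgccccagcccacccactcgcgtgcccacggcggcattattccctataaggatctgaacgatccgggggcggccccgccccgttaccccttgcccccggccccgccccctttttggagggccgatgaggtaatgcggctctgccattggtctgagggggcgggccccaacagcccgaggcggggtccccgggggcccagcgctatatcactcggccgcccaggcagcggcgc
The window before the inner start of SERPINE2, which holds no annotated exon and lies within an intron of the longer transcripts, had 1 match of CACGTG, 5 of CATGTG (all on the opposite strand, so that they read CACATG) and 2 of TGACNNNGC, each of which shares bases with an E-box match beside it. The other 6 windows, including the outer one of SERPINE2, which lies in an exon of another of its transcripts, had no match of any of the 4 motifs. Over 34943 windows of the same length, 6.32% held CACGTG, 9.45% CATGTG, 10.9% TGACNNNGC and 6.59% TGANTCA. In all, 3 windows held 6 or more E-boxes of these 2 kinds, the inner window of SERPINE2 among them, whose own count set this limit. As printed, that window repeats a stretch of sequence with little change, so that its matches are not independent sites. A match of letters is a description and shows no binding, and which start is used in these cells was not measured.

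Of 19 other serpins, 7 of 13 tested rose and 2 fell in WM164 cells, 6 of 11 rose and 0 fell in SKMel28 cells, and 1 of 9 rose and 0 fell in A375 cells. The median log2 fold changes were 0.51, 0.51 and 0.09. Among all tested genes, 16.2% rose and 15.6% fell in WM164, 14.6% and 15.3% in SKMel28, and 0.78% and 0.0634% in A375 cells. SERPINA3, an inhibitor of chymotrypsin-like proteases, passed the test in all 3 lines, each time higher. In WM164 cells it was at 1622 ± 106 CPM with GFP and 2310.1 ± 113 with MAFG (log2 fold change 0.51, edgeR adjusted p = 2.46e-06). In SKMel28 cells it was at 1.15 ± 0.201 and 3.79 ± 0.630 CPM (1.71, edgeR adjusted p = 1.54e-04). In A375 cells, where the GFP libraries had no count of it, it was at least 14.5-fold higher against the floor (edgeR adjusted p = 0.0170). Its A375 mean with MAFG was 0.051% of that in WM164 cells. Here too expression and reads carried over from other libraries cannot be told apart. In WM164 cells, rises past both thresholds included those of SERPINB2 (1 to 3 counts per library with GFP and 27 to 42 with MAFG, 17.1-fold over summed counts with a 95% exact counting interval of 7.59 to 47.6, edgeR adjusted p = 3.45e-05), SERPIND1 (0.227 to 1.31 CPM, log2 fold change 2.51, edgeR adjusted p = 5.65e-04) and SERPINB8 (1.21 to 5.74 CPM, 2.24, edgeR adjusted p = 3.65e-07), all at low levels. PLAT, tissue-type plasminogen activator and a target of SERPINE2, rose in all 3 lines, by log2 fold changes of 1.51 (WM164), 0.55 (SKMel28) and 0.66 (A375) (edgeR adjusted p = 7.15e-13, 1.69e-06 and 0.0224). In A375 cells PLAT was at 51.8, 46.4 and 41.8 CPM with MAFG, all above the GFP libraries at 29.2, 30.9 and 28.4 CPM.

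SPOCK1 (chromosome 5 from 136975298 to 137598379, minus strand) had the lowest level per length of the genes detected in all conditions. In WM164 cells it rose from 11.1, 11.2 and 10.03 CPM to 31.9, 29.6 and 33.4 CPM (log2 fold change 1.55, standard error 0.09, edgeR adjusted p = 3.19e-10). In SKMel28 cells it fell from 9.66, 7.13 and 9.18 CPM to 3.87, 2.76 and 6.27 CPM (-1.02, standard error 0.23, edgeR adjusted p = 0.00364), a call that was lost on the log2(TPM + 1) scale (-0.23, limma adjusted p = 0.484). In A375 cells, the libraries were at 16.1, 14.02 and 11.6 CPM with GFP and 18.9, 26.3 and 26.4 CPM with MAFG, which do not overlap, but the change did not pass (0.78, 95% interval 0.42 to 1.13, edgeR adjusted p = 0.115). It passed without the MAFG library of replicate 1, which stood apart and had the lowest of the MAFG levels (0.94, edgeR adjusted p = 0.00269). It also passed with DESeq2 (0.77, adjusted p = 0.0102), in edgeR without a count filter (0.77, adjusted p = 1.44e-04) and in the edgeR model of all 18 libraries (0.78, adjusted p = 0.0275). Of the other SPARC family genes tested, SPARC rose in WM164 cells, from 2070.2 to 3244 CPM (0.65, edgeR adjusted p = 1.43e-08), the 1 of 2 tested that changed there. Of all tested genes, 31.8% changed in that line.

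One model of all 18 libraries served to compare the responses of the lines. The 3 comparisons share libraries. Between WM164 and SKMel28 cells, the response of 4 of 8 tested genes differed (13.7% of all tested genes). The log2 fold change was higher in WM164 cells by 4.43 for CST1 (standard error 0.14, edgeR adjusted p = 2.34e-12) and by 2.57 for SPOCK1 (0.29, edgeR adjusted p = 2.92e-06), and lower by 1.08 for TIMP3 (0.10, edgeR adjusted p = 3.35e-07) and by 0.38 for TIMP2 (0.10, edgeR adjusted p = 0.0171). The call of TIMP2 was lost without SKMel28 MAFG replicate 3 (edgeR adjusted p = 0.0556) and on the log2(TPM + 1) scale (-0.03, limma adjusted p = 0.930). For A2M the same difference was 4.36, given with no test. These are the 2 lines in which A2M, CST1 and SPOCK1 were higher with MAFG in one and lower in the other.

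Between WM164 and A375 cells, 3 of 7 tested genes differed in response (9.21% of all tested genes), TIMP3 by -1.53 (edgeR adjusted p = 2.82e-09), TIMP2 by -0.40 (edgeR adjusted p = 0.0178) and TIMP1 by 0.29 (edgeR adjusted p = 0.0478). The call of TIMP1 was lost with 9 of the 12 libraries of these lines left out in turn, with edgeR adjusted p up to 0.118, and that of TIMP2 without WM164 MAFG replicate 3 (edgeR adjusted p = 0.0512) or A375 GFP replicate 1 (0.0566). Both calls were lost with the replicate block (edgeR adjusted p = 0.105 for TIMP1 and 0.0576 for TIMP2). That of TIMP1 was also lost without a count filter (edgeR adjusted p = 0.211) and that of TIMP2 on log2(TPM + 1) (-0.10, limma adjusted p = 0.716). SPOCK1 did not pass (0.77, edgeR adjusted p = 0.0840), but did without a count filter (0.76, edgeR adjusted p = 0.00605). Between SKMel28 and A375 cells, 3 of 7 differed (9.51%), SPOCK1 by -1.799 (edgeR adjusted p = 2.87e-04), TIMP3 by -0.45 (edgeR adjusted p = 0.0078) and TIMP1 by 0.34 (edgeR adjusted p = 0.0200). The call of TIMP1 was lost without SKMel28 GFP replicate 2 (edgeR adjusted p = 0.0514), SKMel28 MAFG replicate 3 (0.0679) or A375 GFP replicate 2 (0.0560), with the replicate block (0.0571) and without a count filter (0.0631). On log2(TPM + 1) none of these 3 differences passed (SPOCK1 -0.84, TIMP3 -0.38 and TIMP1 0.34, limma adjusted p = 0.172, 0.205 and 0.251). For LRP1, CST3 and SERPINE2 no difference between lines passed. The unadjusted 95% intervals of some excluded 0, as that of LRP1 in SKMel28 against A375 cells, from -0.58 to -0.05, and that of SERPINE2 there, from -0.41 to -0.02. These intervals use the normal distribution and are somewhat narrow for so few libraries.

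The lines also differed before MAFG overexpression. Between the GFP cells of WM164 and SKMel28, 6 of 8 tested genes differed, where 56.8% of all tested genes did. The log2 level was higher in WM164 cells for SERPINE2 (1.17), LRP1 (0.74) and TIMP1 (0.72), and lower for CST1 (-2.01), TIMP3 (-0.32) and TIMP2 (-0.31), with edgeR adjusted p from 1.18e-11 to 0.0013. On log2(TPM + 1), on which the median of all genes was 0.42 lower in this comparison, LRP1 turned to -0.087 (limma adjusted p = 0.619) and TIMP1 was at 0.12 (limma adjusted p = 0.315), so that both calls were lost. CST3 did not pass (0.21, edgeR adjusted p = 0.0618). It passed as higher in WM164 cells with DESeq2 (0.23, adjusted p = 0.0316), with DESeq2 size factors, without a count filter, with 10 counts in every library and without SKMel28 GFP replicate 1 (edgeR adjusted p from 0.0192 to 0.0499). It passed as lower on log2(TPM + 1) (-0.34, limma adjusted p = 0.0126). Against A375 cells, 7 of 8 genes differed in WM164 (71.5% of all tested genes) and 7 of 8 in SKMel28 cells (68.6%). TIMP3 had the widest gap of the genes with counts in A375 cells, with log2 differences of 3.98 from WM164 and 4.30 from SKMel28 cells, or 15.8-fold and 19.7-fold (edgeR adjusted p = 2.01e-19 and 6.62e-20). Against the floor of 3 counts in A375 cells, CST1 was at least 256-fold higher in WM164 and at least 1032-fold higher in SKMel28 cells, and A2M at least 11052-fold and at least 2572-fold higher. SPOCK1 was the gene that was lower in SKMel28 than in A375 cells (-0.68, edgeR adjusted p = 0.00502). On log2(TPM + 1) this call was lost (-0.40, limma adjusted p = 0.123). So was that of LRP1 in WM164 against A375 cells, at 0.77 in edgeR and 0.31 with a limma adjusted p of 0.0622, where the median of all genes was 0.36 lower. On the same scale LRP1 passed in SKMel28 against A375 cells (0.40, limma adjusted p = 0.0219). SPOCK1 passed in WM164 against A375 cells (-0.57, limma adjusted p = 0.0322), and also without a count filter (-0.38, edgeR adjusted p = 0.0294).

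The inhibitor families listed (RECK, the alpha-2-macroglobulin family, cystatins, serpins, and Kunitz, Kazal and WAP inhibitors) held 54 other genes. Not all of these inhibit proteases, as the complement protein C3. In WM164 cells, 16 of 27 tested rose and 4 fell, which is 59.3% and 14.8%. Their median log2 fold change was 0.73 against -0.00 over all genes. In SKMel28 cells, 9 of 22 rose and 3 fell (40.9% and 13.6%, median 0.04), and in A375 cells 1 of 19 rose and 0 fell (5.3% and 0%, median 0.02). Among all tested genes, 16.2% rose and 15.6% fell in WM164, 14.6% and 15.3% in SKMel28, and 0.78% and 0.0634% in A375 cells. The shares of these family genes that fell in WM164 and SKMel28 cells were thus near those of all genes. In the alpha-2-macroglobulin family, C3, a complement protein of the same fold as A2M, rose from 1.06 to 7.03 CPM in WM164 cells (log2 fold change 2.73, edgeR adjusted p = 2.36e-08). CD109, a membrane-bound member of the family, rose in WM164 cells (0.69, edgeR adjusted p = 1.04e-07) and fell in SKMel28 cells (-0.17, edgeR adjusted p = 0.0287), the directions in which A2M was described. Among Kunitz and WAP inhibitors, TFPI2 fell from 24.7 to 9.69 CPM in SKMel28 cells (-1.35, edgeR adjusted p = 1.31e-07), and WFDC2 and TFPI rose in WM164 cells from levels under 0.5 CPM to 2.11 and 1.31 CPM (2.18 and 1.79, edgeR adjusted p = 0.00113 and 0.0113).

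**Figure D5:**
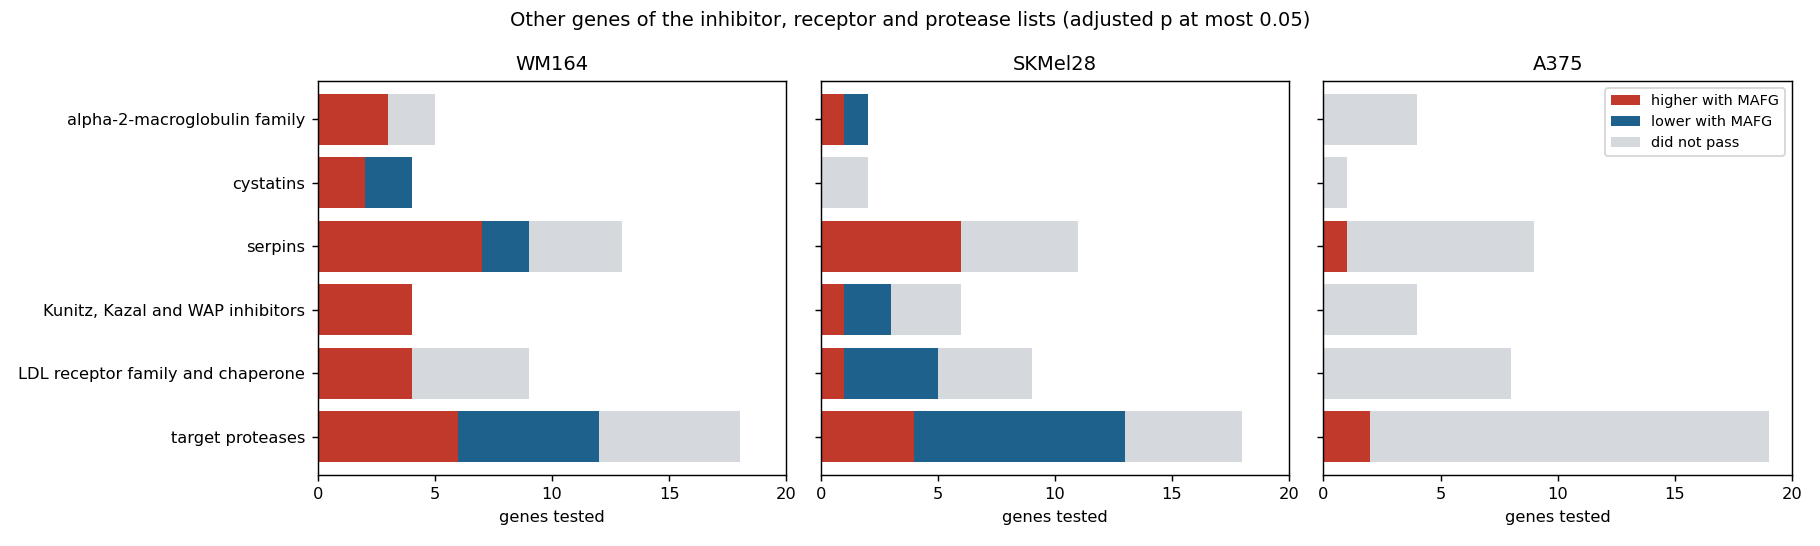
Number of tested genes (x axis) of each list without the 10 genes (y axis) that were higher (red), lower (blue) or did not pass (grey) with MAFG overexpression, in WM164, SKMel28 and A375 cells. Serpins show 7 higher and 2 lower in WM164 and 6 higher and 0 lower in SKMel28 cells, target proteases 9 lower in SKMel28 cells, and A375 cells show few calls. Among all tested genes, 16.2% were higher and 15.6% lower in WM164, and 14.6% and 15.3% in SKMel28 cells.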

How the data were processed

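RNA from WM164, SKMel28 and A375 cells with MAFG or GFP was measured in 18 libraries. The authors trimmed reads with cutadapt 1.8.1, used STAR 2.7.7a for alignment to GRCh38 and featureCounts for counting reads with a unique alignment, and the raw counts were deposited (versions from the submitters' processing notes). The TPM values deposited by the authors were used for levels per length and as an alternative unit; the notes name RSEM 1.3.0. Whether counting used the strand is not given in the sources used here, which differ on the library kit.

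Counts were filtered with filterByExpr, scaled by TMM and tested with edgeR 4.0.16 (quasi-likelihood, two-sided) in R 4.3.3, within each line for MAFG against GFP, and over all 18 libraries for differences between lines. P-values were adjusted by Benjamini-Hochberg over all tested genes. Alternatives used DESeq2 1.42.0, its size factors, other count filters, a block for the replicate number, a single model of the 18 libraries, limma 3.58.1 on log2 TPM with pseudocounts of 1 and 0.1, and each library left out in turn. On simulated data with 200 changed genes among the tested genes, edgeR recovered 200 (WM164), 200 (SKMel28) and 189 (A375). It also called 19, 12 and 15 unchanged genes. The recovery is not split by size of change or by level, so it does not show how well small changes or genes near the floor are found. The floor is 3 counts per library and covers counting error only. Totals of 20122172 to 39025042 counts put that floor between 0.0698 and 0.148 CPM.

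The genes, the lists and the tests were chosen with earlier results of these data known. Beside the 10 genes, genes overlapping them, MAFG and markers, those past both thresholds were named (at most 3 per list and line, by size of change), and the 5 genes most correlated with A2M. Other named genes (LRPAP1, RECK, CTSB, CTSL, SPARC, CD109, PZP, and the values of listed genes in further lines) were chosen after their values were seen. Positions and overlaps are from GENCODE annotation of GRCh38, to which 99.3% of identifiers matched, and start sites from RefSeq.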

Additional observations from a re-analysis of the deposited data

Results flagged for a closer look

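The response to MAFG overexpression differed between lines for several of the genes, by the edgeR test of the difference itself in the model of 18 libraries, and the comparisons share libraries. Between WM164 and SKMel28 cells, the log2 fold change differed by 4.43 for CST1, by 2.57 for SPOCK1, by -1.08 for TIMP3 and by -0.38 for TIMP2. For A2M every library with MAFG was higher than the GFP libraries in WM164 and lower in SKMel28 cells, a difference of 4.36 that was not tested. Between WM164 and A375 cells, the difference was -1.53 for TIMP3, -0.40 for TIMP2 and 0.29 for TIMP1. Between SKMel28 and A375 cells, it was -1.80 for SPOCK1, -0.45 for TIMP3 and 0.34 for TIMP1.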

How the results depend on the processing

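Of 1062 values of the 10 genes under the alternatives, 956 kept their direction and side of the threshold, or moved by less than the spread. Past 2-fold were 1 gene in place of 3 in SKMel28 cells on all 3 TPM scales. In A375 cells, 1 gene in place of 2 changed with the replicate block, on log2(TPM + 0.1) and on log2(TPM + 1), and 0 (also 0 past 2-fold) on log2(TPM + 1) without a filter; with 1 library left out, 1 to 3 changed, 1 of them without GFP replicate 2 or MAFG replicate 2 and 3 without MAFG replicate 1. Over all genes in A375 cells, edgeR called 133, DESeq2 248, edgeR without a filter 328, with the block 64, and 393 without MAFG replicate 1 (range 5 to 506). The range was 1306 to 5294 around 5065 in WM164 and 1625 to 4865 around 4640 in SKMel28 cells. For the response of WM164 against A375 cells, 1 gene in place of 3 differed with the block (TIMP1 adjusted p = 0.105, TIMP2 0.0576 in edgeR), and 1 to 3 with a library left out, 1 without WM164 MAFG replicate 3. For SKMel28 against A375 cells, 0 in place of 3 differed, and 0 in place of 1 past 2-fold, on log2(TPM + 1). For GFP cells, 1 in place of 2 was past 2-fold between WM164 and SKMel28 with 10 counts in every library or on log2(TPM + 1), and 3 in place of 6 between WM164 and A375 on log2(TPM + 1). The cause was not tested.

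Signs turned for LRP1 between GFP cells of WM164 and SKMel28, which had passed at 0.74, and for values that had not passed. On the TPM scales, LRP1 was at 0.15, 0.13 and 0.13 in WM164 and at -0.071, -0.065 and -0.065 in A375 cells, and CST3 at 0.11 in WM164 cells on each. The response difference of WM164 against SKMel28 cells was 0.21 for TIMP1 and that against A375 cells 0.20 for LRP1, 0.086 for CST3 and 0.24 for SERPINE2, and GFP cells of WM164 against SKMel28 were at -0.087 for LRP1, -0.34 for CST3 and -0.16 for SPOCK1. TIMP2 turned to 0.0039 with 10 counts in every library and 0.0055 in the 18-library model in A375 cells, and its response in SKMel28 against A375 cells to 0.0033 with DESeq2 and 0.0039 with its size factors. With 1 library left out, LRP1 ranged from -0.127 to 0.0326 in WM164 and from -0.0334 to 0.102 in A375 cells, and TIMP2 from -0.0522 to 0.0281 in SKMel28 and from -0.0762 to 0.0473 in A375 cells. The response differences then ranged from -0.0853 to 0.0131 for TIMP1 and -0.00804 to 0.115 for CST3 between WM164 and SKMel28, from -0.182 to 0.0120 for LRP1 between WM164 and A375, and from -0.0808 to 0.0837 for TIMP2 between SKMel28 and A375, and LRP1 in GFP cells of SKMel28 against A375 from -0.0328 to 0.0718. On log2(TPM + 1) the median of all genes moved by 0.15 in WM164 and by -0.15 in SKMel28 cells, by 0.26 in their response difference and by -0.42 between their GFP cells.

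The replicate numbers did not pair the libraries (correlations of deviations from -0.0326 to 0.0120, none best with its own number). With the replicate block, SERPINE2 in A375 cells was at 0.69 (edgeR adjusted p = 0.0635), and the response of TIMP1 in SKMel28 against A375 cells at 0.34 (edgeR adjusted p = 0.0571). Depth limits TIMP4, which had at most 8 counts.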
